A study of Sus scrofa with 2 samples.

Results

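DNA methylation was described over the first 3 Mb of pig chromosome 2, Position 1 to 3000000 of the deposited lists, in muscle of 2 Tibetan pigs. The interval was picked as the end of the chromosome that carries the imprinted genes IGF2 and H19, and the files themselves name no gene. The members were chosen by position alone: all cytosines on chromosome 2 in this interval that were listed in at least 1 library. They numbered 11320 of the 13544119 nuclear cytosines listed in the series, with 7824 in the low-altitude list and 7256 in the high-altitude list. The interval was set beside the next 7 Mb of the same chromosome, up to Position 10000000, with 28145 listed cytosines.

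Both pigs were healthy females of the Tibetan breed, and longissimus dorsi, the long muscle of the back, was frozen at sampling. The low-altitude pig was kept on the Chengdu plain, at an average of 500 m, on normal daily feed, and came from Tibetan stock bred there over generations. The high-altitude pig lived free on the Tibetan highland, where the average altitude was 4000 m. Housing, feed, descent and altitude differed together, and 1 pig of each group was sequenced, so no value below has a replicate and no test compares altitudes. DNA was treated with bisulfite, which leaves methylated cytosine as it is and makes unmethylated cytosine read as thymine. The methylation level of a cytosine is its share of methylated reads, given in percent, and all differences are low minus high altitude in percentage points. No sorting of cells is described, so a level averages over muscle fibres and all other cells in the piece.

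Imprinted genes are read from only the maternal or only the paternal copy, and the silent and the active copy differ in methylation at control regions. IGF2 promotes fetal and muscle growth and is read from the paternal copy in mammals, whereas H19, a non-coding RNA next to it, is read from the maternal copy. Between them lies a control region that is methylated on the paternal copy and bound by the insulator protein CTCF on the unmethylated maternal copy. A second imprinted cluster near it holds CDKN1C, which restrains cell division, and PHLDA2, which limits placental growth, and it is governed from within KCNQ1, a potassium channel gene. A control region of this kind gives a level near the middle of the scale in bulk DNA. In the gene table of assembly Sscrofa11.1 the order along this end of chromosome 2 is TNNI2 and TNNT3, both troponins of fast muscle fibres, then MRPL23, IGF2, INS, TH, ASCL2, TSPAN32, CD81, TSSC4, TRPM5, KCNQ1, CDKN1C, SLC22A18 and PHLDA2. That order is background only. The sources used here do not give the build of the deposited positions. These positions ran past the last gene of that table on 18 of 19 chromosomes, and on chromosome 2 by 10.7 Mb. No stretch below was therefore assigned to a gene, and whether the IGF2 and H19 control region is among the listed CpGs was not tested.

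CpGs were sparsely and unevenly listed in the interval. Only CpG cytosines with a minimum of 5 reads, of which 1 or more was methylated, are listed, so an unmethylated CpG and one with too few reads are both absent. Of the 11320 cytosines, 3760 were listed in both libraries, which was 48.1% of the low-altitude list and 51.8% of the high-altitude list. In the 7 Mb beside it these shares were 53.4% and 52.8%, and over the whole nuclear genome 69.3% and 67.1%. The median depth was 6 reads in both libraries, as in the 7 Mb beside it, against 8 reads over the genome. At least 10 reads were reached by 18.9% of the listed cytosines in each library, against 33.2% and 34.5% over the genome in the low- and the high-altitude list. No listed cytosine of the interval was deeper than 40 reads in the low-altitude or 42 reads in the high-altitude library. Most CpGs were listed on a single strand, and 986 of 10334 CpG positions (9.54%) were listed on both, against 27.9% over the genome. The low depth and the listing of single strands limit every value below.

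Methylation was high over the interval in both pigs and almost equal between them. The share of methylated reads over the listed cytosines was 75.2% in the low-altitude pig (95% Wilson interval 74.9 to 75.6, 59526 reads) and 75.0% in the high-altitude pig (74.7 to 75.4, 55437 reads). These intervals cover counting error only. At the 3575 CpGs listed in both libraries, with strands summed, the mean level was 75.6% in the low-altitude and 76.2% in the high-altitude pig, and the difference was −0.62 ± 0.35 points (SE over CpGs). The SD of the difference over single CpGs was 20.8 points, and 1660 CpGs were lower, 1495 higher and 420 equal in the low-altitude pig. The sign of the mean difference depended on which cytosines entered. Over all cytosines of each list, 75.7% in the low-altitude and 75.3% in the high-altitude pig gave 0.39 points. By depth, shared cytosines with 5 to 6 reads in the shallower library differed by −1.18 ± 0.52 points, and those with 10 or more reads by −0.0042 ± 0.61 points (SE). The mean difference was thus smaller than its SE at the cytosines with 10 or more reads.

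The 3 megabases of the interval differed little. In the first, the level was 76.2% in the low-altitude and 77.5% in the high-altitude pig, a difference of −1.34 ± 0.62 points over 1141 shared CpGs. The second was the least methylated, with 73.4% in the low-altitude and 74.1% in the high-altitude pig over 913 CpGs. The third had 76.4% in the low-altitude and 76.5% in the high-altitude pig over 1521 CpGs. In the next 7 Mb the mean level of 9549 shared CpGs was 75.3% in the low-altitude and 74.5% in the high-altitude pig, a difference of 0.78 ± 0.22 points, and over the genome the difference was −1.05 points. The difference of the interval minus that of the 7 Mb beside it was −1.40 points, and −0.77 points without the last of those megabases, where the low-altitude pig was higher by 3.89 points. Both contrasts are descriptions, since stretches of 1 chromosome in 2 libraries are not replicates.

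**Figure D1:**
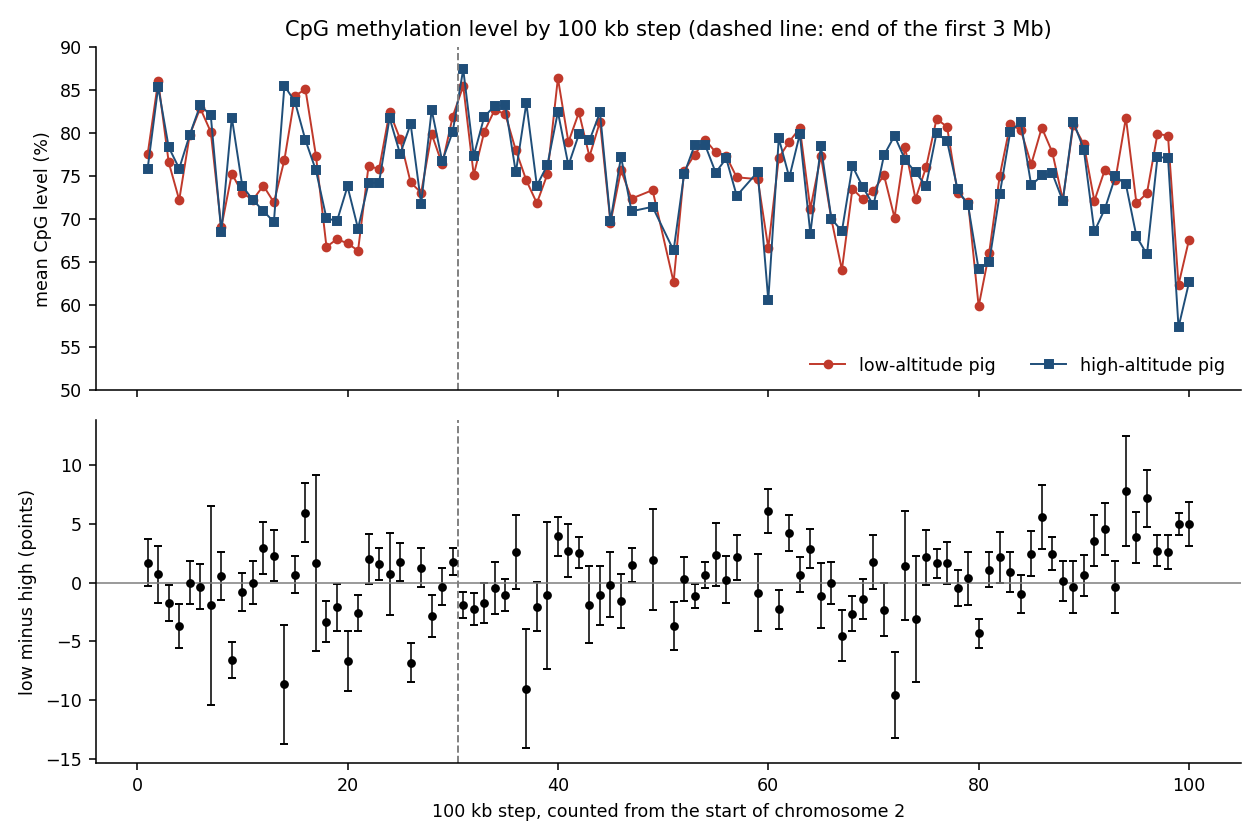
Mean level of CpGs listed in both libraries (upper panel, percent, red circles for the low-altitude and blue squares for the high-altitude pig) and low minus high difference with its SE over CpGs (lower panel, points), by 100 kb step from the start of chromosome 2. The 30 steps left of the dashed line are the first 3 Mb. Both pigs dip at steps 18 to 21, where all values lie below 74%. Within the first 3 Mb, the values of both pigs also lie below 74% at steps 8, 10 to 13 and 27. Of 100 steps, 3 with fewer than 7 CpGs are not drawn.

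In steps of 100 kb, the level followed the same course in both pigs. Over the 30 steps it ranged from 66.3% to 86.1% in the low-altitude pig and from 68.4% to 85.5% in the high-altitude pig, with a correlation of 0.82 across steps, which share their libraries and hold between 7 and 298 shared CpGs each. The SD over steps was 5.54 points in the low-altitude and 5.23 points in the high-altitude pig, against 6.37 and 6.54 points over the 70 steps beside the interval. The most methylated steps were Position 100001 to 200000, with 86.1% in the low-altitude and 85.4% in the high-altitude pig, 1400001 to 1500000, with 84.4% and 83.7%, and 500001 to 600000, with 82.9% and 83.3%. The step at 100001 held 47 shared CpGs, 70.2% of them in 1 part of 10 kb. Its cytosines listed in only 1 library were less methylated, with 75.0% at 90 of the low-altitude and 79.2% at 28 of the high-altitude list. The least methylated steps were 2000001 to 2100000, with 66.3% in the low-altitude and 68.9% in the high-altitude pig, 1700001 to 1800000, with 66.7% and 70.1%, and 1800001 to 1900000, with 67.6% and 69.8%. Close to these lay 700001 to 800000, with 69.0% in the low-altitude and 68.4% in the high-altitude pig, the lowest step of that pig. The number of listed cytosines in a step, which ran from 47 to 913, went with its level only weakly, at a correlation of −0.090 across the 30 steps.

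The 3 least methylated steps and the one between them, from 1700001 to 2100000, are called here a domain of lower methylation. It was singled out after its values were seen. Its continuity cannot be shown, since 1908770 to 1960723 held no listed CpG. Its 10 kb windows were uneven, with 54.5% in the low-altitude and 58.6% in the high-altitude pig at 2060001, and 75.5% and 81.2% at 2070001. Steps beside the interval went down to 59.8% in the low-altitude and 57.4% in the high-altitude pig. Over the genome the mean of shared CpGs was 72.2% and 73.3%. Windows of 100 kb over the genome had an SD of 8.82 points in the low-altitude and 8.78 points in the high-altitude pig. The mean levels of the domain, given next, lay within that SD of the genome mean. The 520 shared CpGs of the domain had a mean level of 66.8% ± 1.0 (SE over CpGs) in the low-altitude and 70.2% ± 1.0 in the high-altitude pig. The 3055 shared CpGs of the rest of the interval had 77.1% ± 0.38 in the low-altitude and 77.2% ± 0.38 in the high-altitude pig. Cytosines listed in only 1 library had not entered those means, but share the stretch and the libraries, so they are no independent support. The lower level was also present there. It was 68.5% at 447 such cytosines of the low-altitude list, against 76.5% in the rest of the interval. It was 65.01% at 434 of the high-altitude list, against 75.4% in the rest. Pooled over both libraries, 39.8% of the shared CpGs in the domain had an intermediate level of 30 to 70%, against 26.5% in the rest, and 6.92% were below 30%, against 2.42%. The share above 90% was 15.4%, against 27.3%. Depth was alike, with a median of 9 reads per shared CpG in the low-altitude and 8 in the high-altitude library within the domain, and 8 in each outside it. The domain followed on a highly methylated stretch, from 1400001 to 1600000, with 84.6% ± 1.2 in the low-altitude and 82.3% ± 1.3 in the high-altitude pig over 219 CpGs. Between them, the step from 1600001 to 1700000 held 9 shared CpGs. Within the domain the low-altitude pig was lower by 3.40 ± 0.93 points (SE), while in the rest of the interval the difference was −0.15 ± 0.37 points. At the cytosines of a single list the order was the other one, with 68.5% in the low-altitude and 65.01% in the high-altitude list. Shared and single-library cytosines thus gave opposite directions in this domain.

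Windows of 1 kb gave a finer view. A window needed 5 or more CpGs, each with 5 or more reads in both libraries, and 301 of 3000 windows passed, with a median of 7 CpGs, 71 reads in the low-altitude and 68 in the high-altitude library. Levels above 80% were found in 129 windows (42.9%) of the low-altitude and 126 (41.9%) of the high-altitude pig. In both pigs at once, 87 windows (28.9%) were above 80%, against 34.7% of the 787 windows in the 7 Mb beside the interval and 28.7% of autosomal windows. Windows below 40% were few, with 5 in the low-altitude and 3 in the high-altitude pig. The levels of both pigs had a correlation of 0.71 across the 301 windows and of 0.75 across the 787, where windows share libraries and differ in depth.

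**Figure D2:**
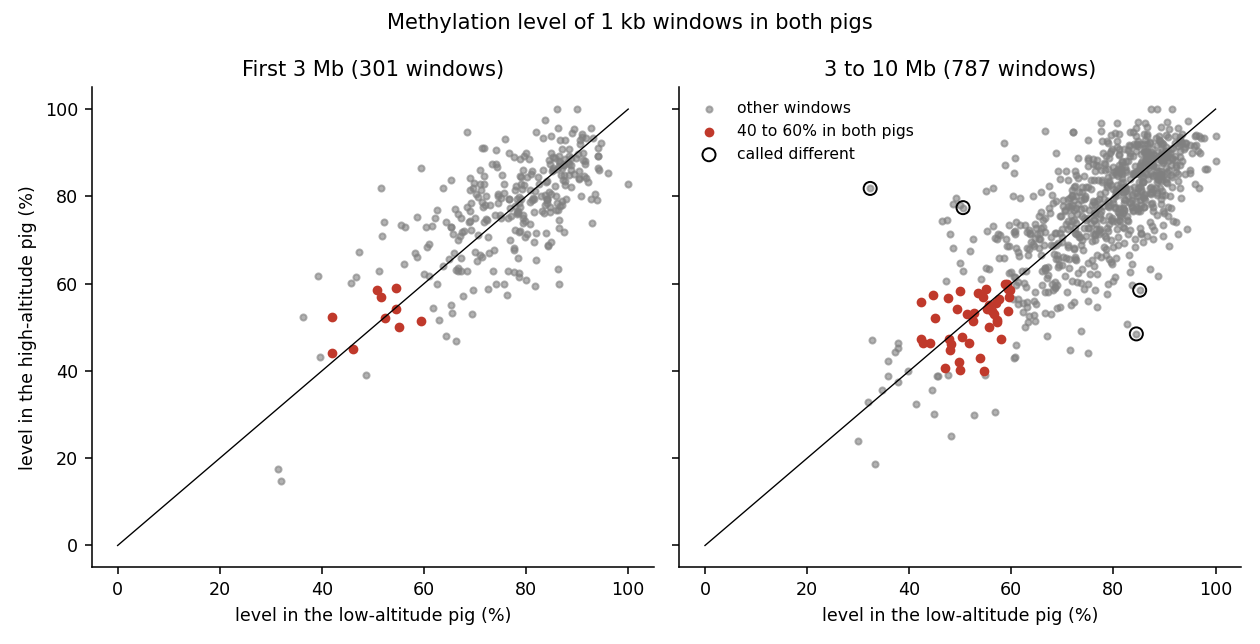
Methylation level of 1 kb windows in the low-altitude pig (horizontal axis, percent) and in the high-altitude pig (vertical axis, percent), for the first 3 Mb (left) and for 3 to 10 Mb (right). Each point is a window, red points lie at 40 to 60% in both pigs and circles mark called differences. The left panel has 10 red points and no circle, the right panel 41 red points and 4 circles.

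Half-methylated windows, defined by a level of 40 to 60% in both pigs, were searched because imprinted control regions take such levels. A level near the middle can also arise where a part of the cells, or different molecules at different CpGs, are methylated. The deposited counts hold no alleles and no single reads, so these cases cannot be told apart. The interval held 10 half-methylated windows, 3.32% of 301 (95% Wilson interval 1.81 to 6.01). The 7 Mb beside it held 41 of 787 (5.21%, 3.86 to 6.99), and autosomes 5.85%. The intervals overlapped. Of the 41, 11 lay in the last 200 kb before Position 10000000 and were covered by 130 to 651 reads, whereas those of the interval had 34 to 200 reads. With at least 10 CpGs per window, 4 of 79 windows of the interval (5.06%, 1.99 to 12.3) and 4 of 111 beside it (3.60%, 1.41 to 8.90) were half-methylated. The share on autosomes was 3.66% at this setting, within both of these intervals. None of the 10 adjoined another within 1 kb. The share of half-methylated windows was thus lower than beside the interval at 5 CpGs and higher at 10 CpGs, in both cases with overlapping intervals.

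Of the 10 windows, 4 had at least 10 CpGs. From 796001 to 797000 the level was 42.0% in the low-altitude pig (95% Wilson interval 34.6 to 49.9, 157 reads) and 52.4% in the high-altitude pig (44.9 to 59.7, 170 reads) over 17 CpGs. From 2050001 to 2051000 it was 54.5% in the low-altitude (46.7 to 62.2, 154 reads) and 59.0% in the high-altitude pig (49.9 to 67.5, 117 reads) over 14 CpGs. From 2063001 to 2064000 it was 46.0% in the low-altitude (38.5 to 53.7, 163 reads) and 45% in the high-altitude pig (38.3 to 51.9, 200 reads) over 12 CpGs. From 2666001 to 2667000 it was 41.9% in the low-altitude (32.4 to 52.1, 93 reads) and 44.1% in the high-altitude pig (32.9 to 55.9, 68 reads) over 11 CpGs. The windows of the pair at 2.05 and 2.06 Mb both lie in the domain of lower methylation.

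These 4 windows were not alike inside. In the window at 2666001 the 11 shared CpGs ran from 16.7% to 55.6% in the low-altitude and from 20% to 62.5% in the high-altitude pig. In each pig 8 of the 11 lay at 30 to 70%. A fully unmethylated CpG could not enter, since listing needs a methylated read in each library. This window held 17 listed cytosines, 4 of them only in the low-altitude and 2 only in the high-altitude list. It spanned 280 bases from its first to its last CpG, had shared CpGs on the plus strand only, and had no shared CpG within 3 kb on either side. In the window at 2063001, 7 of 12 CpGs in the low-altitude and 8 of 12 in the high-altitude pig lay at 30 to 70%. There both strands had near-equal levels, with 44.4% on plus and 50% on minus in the low-altitude pig, and 45.8% and 41.2% in the high-altitude pig. The 20 CpGs within 3 kb to the right of this window had 61.4% in the low-altitude and 72.3% in the high-altitude pig. The 1 CpG within 3 kb to its left had 25% in the low-altitude and 20% in the high-altitude pig. The window at 2050001 mixed CpGs from 16.7% to 81.8% in the low-altitude and from 12.5% to 100% in the high-altitude pig, all on the plus strand. In the window at 796001 CpGs ran from 8.33% to 100% in the low-altitude and from 12.5% to 100% in the high-altitude pig. Its minus-strand reads were methylated at 37.8% in the low-altitude and 36.1% in the high-altitude pig, and its plus-strand reads at 60% and 90.2%, so that its middle level arose from a mixture of low and high CpGs.

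**Figure D3:**
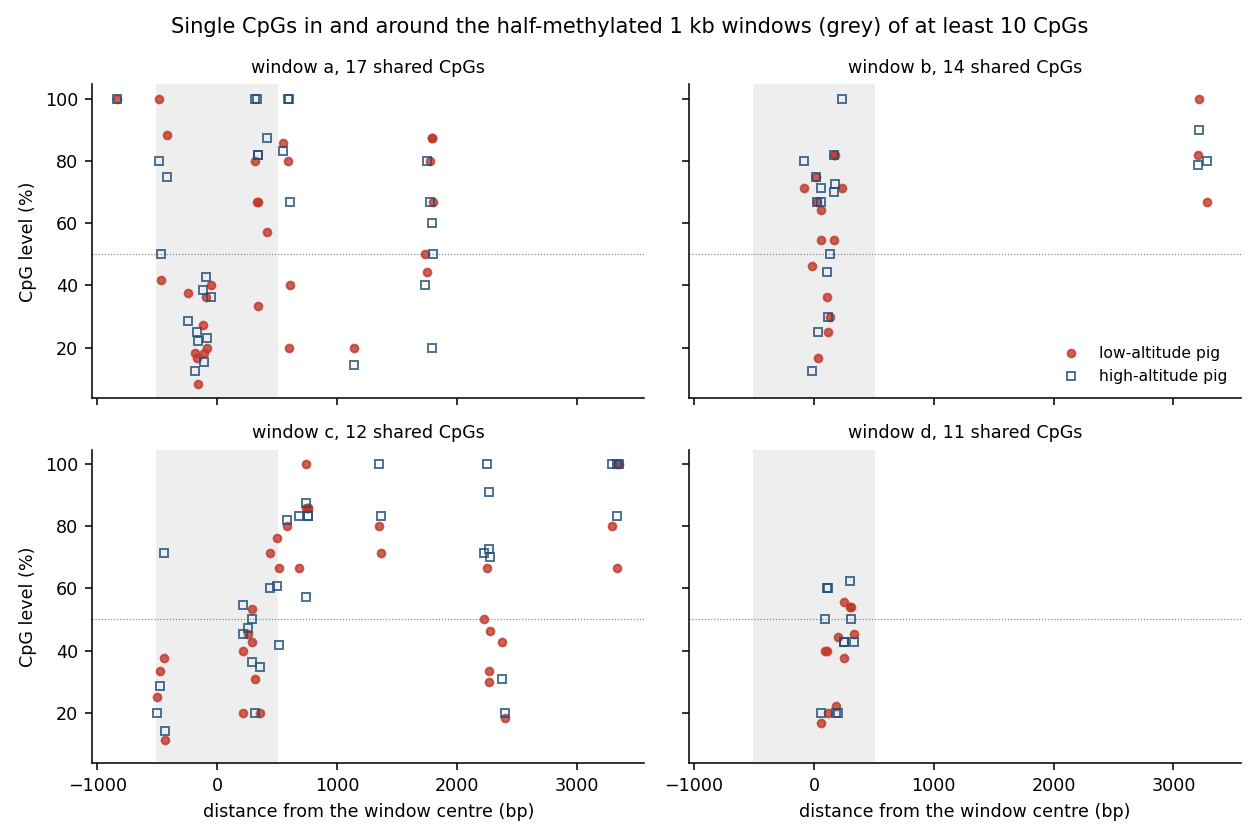
Level of single CpGs listed in both libraries (vertical axis, percent) against the distance from the window centre (horizontal axis, bp) for the 4 half-methylated windows of at least 10 CpGs, from 796001 (a), 2050001 (b), 2063001 (c) and 2666001 (d). Filled red circles are the low-altitude and open blue squares the high-altitude pig, and grey marks the 1 kb window. In d all 11 CpGs stay between 16.7% and 62.5% in both pigs, while in a they spread from 8.33% to 100%.

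The other 6 half-methylated windows held 5 to 9 CpGs. From 1734001 to 1735000, 8 CpGs had 52.3% in the low-altitude (43.7 to 60.8, 128 reads) and 52.2% in the high-altitude pig (44.5 to 59.8, 159 reads). With about 16 and 20 reads per CpG it had the most reads per CpG of the 10, and CpGs within 3 kb had 74.8% and 73.6% on its sides in the low-altitude and 80.8% and 78.7% in the high-altitude pig. Its mean level was thus below that of its surroundings, but its CpGs were mixed. They ran from 22.2% to 80% in the low-altitude and from 14.3% to 93.75% in the high-altitude pig, all on the plus strand. At 30 to 70% lay 4 of the 8 CpGs in the low-altitude and 5 in the high-altitude pig. This window also lies in the domain of lower methylation. The windows at 318001 and 972001 had 50.7% and 51.6% in the low-altitude and 58.5% and 56.9% in the high-altitude pig, with flanks between 73.7% and 87.3%. Those at 986001, 1263001 and 2533001 rested on 34 to 74 reads per library, with levels from 54.5% to 59.3% in the low-altitude and from 50% to 54.3% in the high-altitude pig. All shared reads came from 1 strand in 6 of the 10 windows, against 63.1% of the 301 windows in the interval and 31.5% of half-methylated windows over the genome. Strand agreement could thus be read in few of them.

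Runs of CpGs were searched as well, since a fixed 1 kb grid cuts stretches. A run held at least 5 consecutive shared CpGs, each at 30 to 70% over both libraries and at most 500 bp from the next. The interval had 16 runs with 89 CpGs, 2.49% of its shared CpGs, and the 7 Mb beside it had 34 runs with 197 CpGs (2.06%). Runs were short, with a median span of 286 bases and at most 7 CpGs. The longest in CpGs were at 1740435 to 1740768, with 53.7% in both pigs over 7 CpGs (54 reads each), at 2024391 to 2024661, with 52.2% in the low-altitude (46 reads) and 47.3% in the high-altitude pig (91 reads), and at 2568655 to 2568794, with 44.2% in the low-altitude (52 reads) and 63.8% in the high-altitude pig (47 reads). Runs of 6 CpGs lay at 2000185 to 2000573, with 54.7% in the low-altitude and 50.8% in the high-altitude pig, at 2071325 to 2071375, with 45.5% and 69.0%, and at 2666704 to 2666837, with 49.2% and 45.2%. Of the 10 runs with 5 CpGs, those with the most reads were at 1264788 to 1265133, with 62.7% in the low-altitude and 59.2% in the high-altitude pig, and at 2242331 to 2242562, with 49.1% and 65.6%. In 6 of the 16 runs both pigs lay between 40 and 60%. The domain of lower methylation, which holds 520 of the 3575 shared CpGs and rests on the same values, had 7 of the 16 runs, among them 4 in the step from 2000001 to 2100000.

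Strongly unmethylated windows could hardly be seen, because a CpG without a methylated read is not listed. Only 2 windows (0.66%) were below 40% in both pigs, against 0.76% in the 7 Mb beside the interval and 0.89% on autosomes. From 1102001 to 1103000 the level was 32.1% in the low-altitude (21.1 to 45.5, 53 reads) and 14.8% in the high-altitude pig (7.70 to 26.6, 54 reads) over 5 CpGs. From 1785001 to 1786000 it was 31.3% in the low-altitude (21.5 to 43.2, 67 reads) and 17.6% in the high-altitude pig (10.6 to 27.8, 74 reads) over 6 CpGs. The high-altitude pig was lower in both, and neither difference passed the test (Fisher's exact test, adjusted p 0.474 and 0.580).

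Long stretches held no listed CpG at all. Listed CpGs came in tight groups, with a median spacing of 30 bases in the interval and 47 bases in the 7 Mb beside it, and 62.9% of neighbours were at most 50 bases apart, against 51.6%. Between the groups, gaps of at least 1 kb took up 71.4% of the interval and 60.1% of the 7 Mb beside it. Gaps of at least 5 kb took up 40.6% and 29.7%, and those of at least 50 kb took up 15.1% and 16.1%. There were 29 gaps of at least 10 kb, or 9.67 per Mb, against 6.71 per Mb beside the interval. Of the 1 kb steps, 53.3% held no listed CpG, against 42.6%, while of the 10 kb steps 17.7% and 17.1% were empty. The interval thus had more of its length in gaps of at least 1 kb, and a like share in the longest ones.

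The 5 longest gaps were 72.1 kb at 611667 to 683738, 60.2 kb at 866787 to 926985, 59.4 kb at 365343 to 424779, 53.65 kb at 1311899 to 1365548 and 53.0 kb at 1664341 to 1717297. The next 3 were 52.7, 52.0 and 50.6 kb long, and the one after them 35.8 kb, so that 6 of the 8 gaps above 50 kb were at most 60 kb long. In the 7 Mb beside the interval, 15 of 19 such gaps had a length of 50 to 60 kb. Unread sequence, unknown bases of the assembly and CpGs without methylation all leave a gap, and they cannot be told apart here. The gap at 1664341 runs across the left border of the domain of lower methylation, and 1 cytosine was listed in the 2 kb before and 6 in the 2 kb after it, none of them in the high-altitude list. Listed cytosines within 2 kb of the gap at 611667 had 71.4% and 72.7% methylated reads in the low-altitude and 67.9% and 75.2% in the high-altitude pig on its left and right. At the gap from 2118072 to 2168685, singled out after its values were seen, the right flank was low in both pigs, with 23.2% of 112 reads in the low-altitude and 31.0% of 142 reads in the high-altitude pig.

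**Figure D4:**
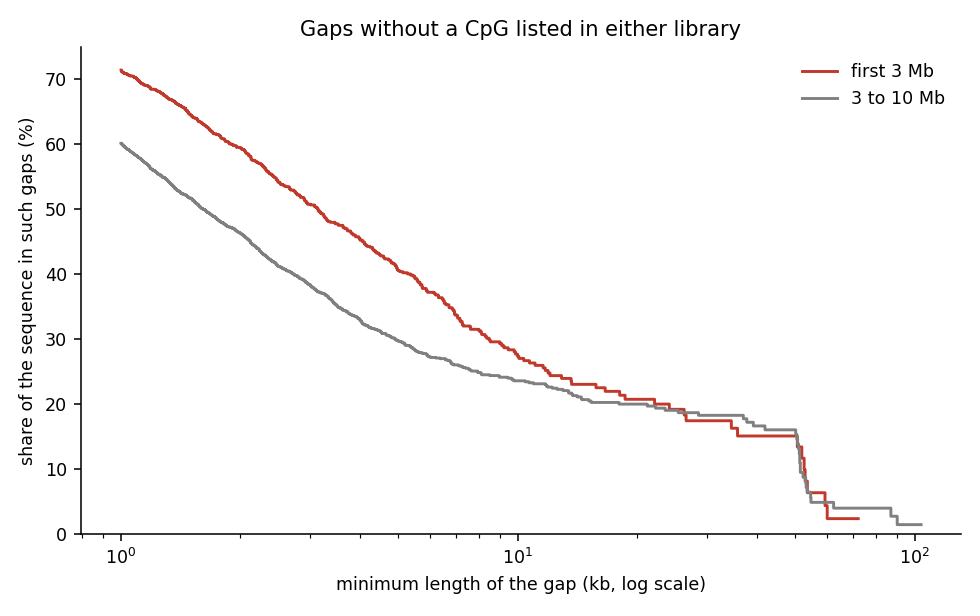
Share of the sequence (vertical axis, percent) that lies in gaps of at least the length on the horizontal axis (kb, log scale), for CpGs listed in either library. The red line is the first 3 Mb and the grey line 3 to 10 Mb. At 1 kb the lines stand at 71.4% and 60.1%, they meet near 20 kb, and both drop between 50 and 60 kb.

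The differences between the pigs were then taken in 100 kb steps. The low-altitude pig was lower in 15 of 30 steps and higher in the other 15, with a mean of −0.76 points and an SD of 3.29 points over steps. In the 70 steps beside the interval the mean was 0.59 and the SD 3.47 points. The most negative differences were −8.64 ± 5.07 points at 1300001 to 1400000, on 18 CpGs, −6.83 ± 1.66 points at 2500001 to 2600000, on 122 CpGs, and −6.65 ± 2.54 points at 1900001 to 2000000, on 83 CpGs (SE over CpGs). Close to them was the step from 800001 to 900000, with −6.55 ± 1.53 points on 151 CpGs. The most positive were 5.93 ± 2.50 points at 1500001 to 1600000, on 66 CpGs, 2.95 ± 2.19 points at 1100001 to 1200000 and 2.28 ± 2.16 points at 1200001 to 1300000. At 1100001 the sign depended on the measure, with −0.16 points for the share of methylated reads and −4.80 points at cytosines listed in only 1 library. At 1200001 these values were 3.02 and 6.89 points. A difference beyond 2 SE was seen in 4 of 30 steps, against 12 of 70 beside the interval. Neighbouring CpGs share reads, so these SEs are too small.

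These steps were picked for their differences, so the strands, parts and CpG counts given next describe the same values and are no further support. From 2500001 to 2600000 the level was 74.2% in the low-altitude and 81.1% in the high-altitude pig, and 73 CpGs were lower, 32 higher and 17 equal in the low-altitude pig. The difference was −5.08 points on the plus and −8.92 points on the minus strand, and 4 of 5 parts of 10 kb with at least 5 CpGs were lower, with 41.8% of the CpGs in 1 part. At cytosines listed in a single library the levels were 74.6% for the low-altitude and 80.5% for the high-altitude list. From 800001 to 900000 the level was 75.3% in the low-altitude and 81.8% in the high-altitude pig, with −6.11 points on the plus and −7.44 points on the minus strand, and 6 of 7 parts were lower, although a single part held 55.6% of its CpGs. At single-library cytosines it was 75.0% for the low-altitude and 78.2% for the high-altitude list. In the step at 1900001, 5 of 5 parts were lower on shared CpGs, yet single-library cytosines had 64.1% for the low-altitude and 61.9% for the high-altitude list. In the step at 1500001, shared CpGs were higher in the low-altitude pig on both strands, by 5.61 and 5.65 points, and single-library cytosines were lower, at 74.3% for the low-altitude and 81.1% for the high-altitude list. Of these 4 steps, the direction was thus the same in both kinds of cytosines in 2 and opposite in 2. The most negative step, at 1300001, is not among these 4. Its difference was 1.59 points on the plus and −16.8 points on the minus strand, on 18 shared CpGs. Its single-library cytosines had 76.6% in both lists, with a difference of 0.031 points.

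**Figure D5:**
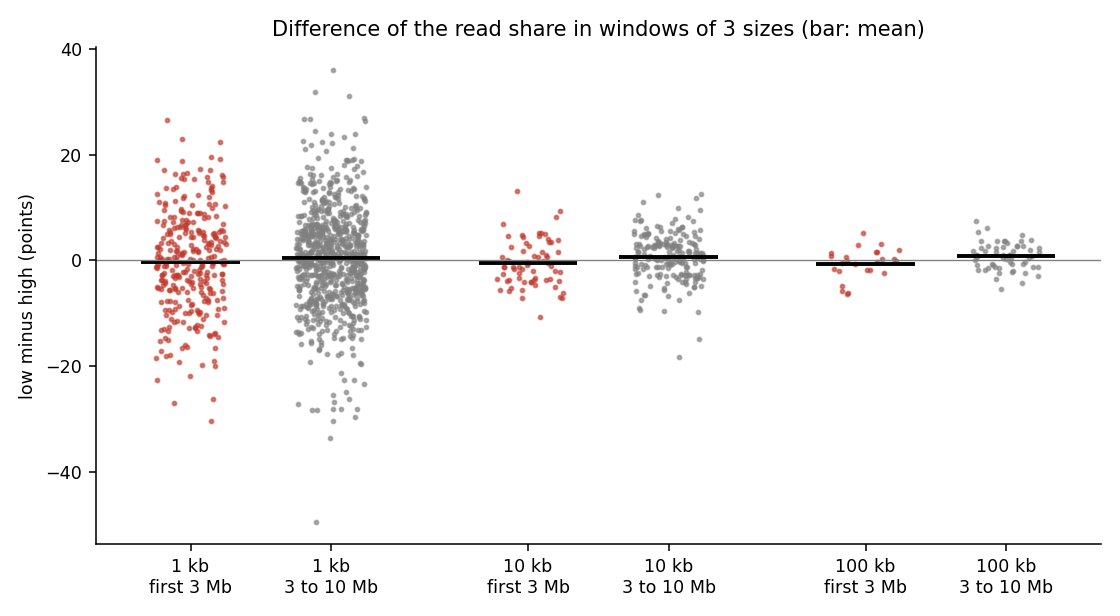
Low minus high difference of the share of methylated reads (vertical axis, points) in windows of 1, 10 and 100 kb, for the first 3 Mb (red) and for 3 to 10 Mb (grey). Each point is a window, and black bars are means. For 1 kb windows of the first 3 Mb the points run from −30.3 to 26.5, and for 100 kb windows of at least 50 CpGs from −6.41 to 5.23.

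Smaller windows gave no called difference. The two-sided Fisher's exact test was run on summed reads over the whole genome, with Benjamini-Hochberg adjustment over all windows. It compares the 2 libraries and takes reads as independent. Within a window, 1 read can count at several CpGs, which makes the test too lenient for windows. At single CpGs a read counts once, some reads may be copies, and the effect of copies was not tested. In 10 kb windows with at least 20 CpGs, 0 of 68 passed both limits for a call, an adjusted p below 0.05 and 10 points, where 1.52% were called over the genome, and 6 (8.82%) had an unadjusted p below 0.05, against 14.9% beside the interval and 14.7% over the genome. In 1 kb windows, 0 of 301 were called at 20 points, with 0.494% over the genome, and 29 (9.63%) had an unadjusted p below 0.05, against 9.40% beside the interval and 9.88% over the genome. Of the single CpGs covered by 10 or more reads in both libraries, 0 of 906 were called at 25 points, with 0.323% over the genome, and 39 (4.30%) had an unadjusted p below 0.05, against 4.80% beside the interval and 5.35% over the genome. At the shares of the genome, few calls would fall into so small an interval, and the 0 calls do not show that the pigs were equal there.

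The spread of the differences over windows was close to that beside the interval. For 1 kb windows its SD was 9.54 points, against 9.64 points beside the interval and 8.86 points over the genome. For 10 kb windows it was 4.405 points, against 4.54 and 4.32 points. For 100 kb windows with at least 50 CpGs it was 2.92 points, against 2.58 and 2.22 points. The binomial SD for 1 kb windows, which takes all reads as independent, was 7.28 points in the interval, 7.51 points beside it and 7.16 points over the genome. The technical spread can be larger, since a read counts at several neighbouring CpGs and some reads may be copies. The binomial SD also takes 1 level for all CpGs of a window, which can make it too large. Shared reads, copies, the libraries and the pigs cannot be told apart as sources of the rest.

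Among 1 kb windows, the largest differences, named after their values were seen, were negative in 3 windows and positive in 1. From 1744001 to 1745000 the level was 51.7% in the low-altitude (31 of 60 reads) and 82.0% in the high-altitude pig (41 of 50 reads), or −30.3 points (adjusted p 0.100, Fisher's exact test). It lies in the domain of lower methylation. Its tested neighbours had 56.1% in the low-altitude and 64.5% in the high-altitude pig on the left, and 75.0% in both on the right. From 2178001 to 2179000 it was 59.5% in the low-altitude and 86.5% in the high-altitude pig (37 reads each), and from 2835001 to 2836000 it was 68.4% and 94.7% (38 reads each). The most positive difference was at 995001 to 996000, with 86.5% in the low-altitude (37 reads) and 60% in the high-altitude pig (35 reads), or 26.5 points (adjusted p 0.326, Fisher's exact test). Among 10 kb windows the most positive difference was at 1770001 to 1780000, with 79.8% in the low-altitude (228 reads) and 66.7% in the high-altitude pig (165 reads), or 13.2 points (adjusted p 0.0922, Fisher's exact test). The most negative was at 2560001 to 2570000, with 65.6% in the low-altitude and 76.4% in the high-altitude pig, −10.8 points (adjusted p 0.282, Fisher's exact test), and this window lies in the 100 kb step at 2500001.

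One difference depended on where a window began. With the 1 kb grid moved by 500 bp, 1 of 296 windows was called, with 0.524% called over the genome. It was the window from 796501 to 797500, which overlaps the half-methylated window at 796001. It had 59.6% in the low-altitude pig (46.1 to 71.8, 31 of 52 reads) and 89.3% in the high-altitude pig (80.3 to 94.5, 67 of 75 reads) over 9 CpGs, which is −29.7 points (adjusted p 0.0356, Fisher's exact test). In the window from 796001 to 797000 itself the difference was −10.3 points. The 9 CpGs from 241 to 50 bases left of the centre of that window ran from 8.33% to 40% in the low-altitude and from 12.5% to 42.9% in the high-altitude pig. The 5 CpGs on its right, with 5 to 11 reads each, ran from 33.3% to 80% in the low-altitude and from 81.8% to 100% in the high-altitude pig.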

How the data were processed

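Whole-genome bisulfite libraries of longissimus dorsi of 1 low-altitude and 1 high-altitude pig were analysed. The authors deposited, per the file headers, read counts of each cytosine (methylated, unmethylated), its level as a fraction, and raw and corrected p-values. The submitters' processing notes name Bismark 0.12.5. The sources used here give neither build nor read filters nor duplicate treatment. Per the labels' protocols, lambda DNA was added and DNA was treated with bisulfite and amplified.

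From the counts, levels were computed as methylated over all reads. The deposited fraction, which has a constant non-conversion rate removed, was used as an alternative and the p-values were not used. Cytosines listed in both libraries were kept, the strands of a CpG were summed, and windows of 1 kb (at least 5 CpGs) and 10 kb (at least 20 CpGs), and single CpGs with at least 10 reads, were tested over the whole nuclear genome by Fisher's exact test with Benjamini-Hochberg adjustment. Python 3.11.15, pandas 2.3.3, numpy 2.4.6 and numba 0.67.0 were used, and the tests were checked on simulated reads. Total reads at listed nuclear cytosines were 95363149 in the low-altitude and 99955761 in the high-altitude library. Intervals take reads as independent, although some may be copies of a molecule.

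The interval, thresholds and definitions were chosen with earlier results of these data known. Named regions are all called windows, the 8 runs with the most CpGs (ties by reads), the 5 longest gaps, and the 3 steps of 100 kb at each end of level and difference. All other named regions, among them the half-methylated windows, were chosen after their values were seen. Alternatives covered depth, window start and size of difference, level bands, strands and the cytosines used. No sequence is shown, since no genome of the files' build was used here.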

Additional observations from a re-analysis of the deposited data

How the results depend on the processing

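No paired analysis was possible because each group has 1 library. The count of called 1 kb windows was 0 in the main setting and under 6 alternatives, and 1 with windows shifted by 500 bp. The counts of called 10 kb windows and of called single CpGs stayed at 0 under all alternatives run. The mean difference kept its sign, from −0.67 to −0.40 points, under 4 alternatives, and was 0.39 points over all cytosines of each list. The contrast with the 7 Mb beside the interval kept its sign under 5 alternatives, from −1.64 to −0.71 points. The alternatives without CpGs above 60 reads for half-methylated windows, and without the last megabase for this contrast, were chosen after seeing the data.

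Counts of half-methylated stretches depended on their definition. The 10 half-methylated windows became 25 with a band of 35 to 65%, 2 with at least 10 reads per CpG and 4 with at least 10 CpGs. The 7 Mb beside the interval had 87 (11.05% of windows) with the wider band, against 8.31% in the interval. The 16 runs became 60 with a band of 20 to 80%, 0 with at least 8 CpGs and 1 with at least 10 reads per CpG. The 29 gaps became 60 where only cytosines listed in both libraries counted and 86 from 5 kb on. With at least 10 reads per CpG the lowest 100 kb level was 62.6% in place of 67.6%, and the highest 90.7% in place of 85.7%. Fewer CpGs enter at 10 reads by construction. Depth limits all of these values, since a median of 6 reads leaves wide intervals for a single CpG.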

Other observations

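At 185 CpGs of the interval both strands were listed in both libraries. Their mean level was 78.3% on the plus and 77.5% on the minus strand in the low-altitude pig, and 79.3% and 79.1% in the high-altitude pig. The strands of a CpG differed by a mean of 16.7 points in size in the low-altitude and 15.7 points in the high-altitude pig, at the low depth of these sites. In the 7 Mb beside the interval, 630 such CpGs had mean strand differences of 15.2 points in the low-altitude and 14.8 points in the high-altitude pig.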
